A study of Mus musculus with 16 samples.

Results

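Molecular chaperones are proteins that help other proteins fold, keep them soluble and hand them on to complexes, organelles or degradation. The genes described here were taken by symbol from the annotation of a mouse expression array: the Hspa (Hsp70 and Hsp110), Hspb (small heat shock protein), Hspd, Hspe, Hsph and Hsp90 genes, the Dnaja, Dnajb and Dnajc genes (J-domain co-chaperones), and the Cct and Tcp1 genes (cytosolic chaperonin). The rule found 79 genes among the 18193 genes measured. They were read on 195 probe sets, and each gene was represented by its brightest probe set, with the others kept as a check. Total RNA came from embryonic mice at 3 stages of gestation, in a study of early brain development: E9.5 (n = 6 arrays), E11.5 (n = 4) and E13.5 (n = 6), each array being a separate biological replicate per the series design. The sample titles name the embryo head and the source labels only embryonic tissue, and the labels used here give no strain, genotype or litter. The labelling reaction was the GeneChip one-cycle in vitro transcription for E9.5 and E11.5 RNA and MessageAmp II-Biotin Enhanced for E13.5 RNA. A difference of E13.5 from either earlier stage is thus also a difference of kits, and their effects cannot be told apart. In bulk tissue, fewer cells of a type and less RNA per cell cannot be told apart either.

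Chaperones work as linked machines. Hsp70 proteins bind exposed hydrophobic stretches and release them through an ATP cycle, in which J-domain proteins deliver the substrate and start hydrolysis, and Hsp110 proteins and other exchange factors remove the ADP. Hsp90 proteins act later on nearly folded clients such as kinases and steroid receptors, and chaperonins enclose a client in a chamber, with actin and tubulin as the main clients of the cytosolic ring. Small heat shock proteins hold unfolded proteins without ATP. Many of these genes are induced by heat shock factors through heat shock elements, and those of the endoplasmic reticulum through the unfolded protein response.

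Promoter sequences are shown for context, since Hspd1 and Hspe1, described below, share a promoter and 3 main genes of the endoplasmic reticulum hold a known stress element. No result was tested against them. RefSeq promoters of build GRCm38.p6, each running 250 bases before to 50 bases after a gene's start, were found for 66 of the 79 genes (85 promoters). The mitochondrial chaperonin genes Hspd1 and Hspe1 lie head to head on chromosome 1, with 215 bases between the nearest pair of start sites. Those bases are printed on the Hspe1 strand (chr1:55087933-55088147, plus strand), with a heat shock element of 4 units in capitals at positions -89 to -72 from the Hspe1 start. The next sequence is a stretch of the promoter of the J-protein gene Dnajb6 (chr5:29735832-29735884, plus strand), with a heat shock element of 3 units in capitals. The last 3 are stretches of the promoters of the endoplasmic reticulum genes Hspa5 (chr2:34772005-34772063, plus strand), Hsp90b1 (chr10:86705513-86705676, minus strand) and Dnajc3 (chr14:118937807-118937865, plus strand), with endoplasmic reticulum stress elements in capitals, of which Hsp90b1 holds 2.
Hspd1 to Hspe1: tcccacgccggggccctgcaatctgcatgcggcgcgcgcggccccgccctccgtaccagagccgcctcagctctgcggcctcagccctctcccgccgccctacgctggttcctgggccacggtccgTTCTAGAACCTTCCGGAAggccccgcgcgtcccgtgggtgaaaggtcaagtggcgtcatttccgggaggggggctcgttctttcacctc
Dnajb6: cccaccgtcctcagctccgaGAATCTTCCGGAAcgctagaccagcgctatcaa
Hspa5: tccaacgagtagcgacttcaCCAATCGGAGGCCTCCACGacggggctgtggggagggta
Hsp90b1: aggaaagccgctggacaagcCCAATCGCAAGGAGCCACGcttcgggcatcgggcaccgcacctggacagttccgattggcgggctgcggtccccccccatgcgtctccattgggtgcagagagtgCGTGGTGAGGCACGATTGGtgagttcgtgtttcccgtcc
Dnajc3: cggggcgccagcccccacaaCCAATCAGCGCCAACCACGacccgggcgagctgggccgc

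The heat shock element of 3 units was searched as GAANNTTCNNGAA or TTCNNGAANNTTC on both strands. It was found in 6 of the 85 promoters, belonging to Dnajb6, Hspd1, Hspe1 and Hsph1, and in 0.603% of all 32851 promoters of the same length. These 6 windows overlap and are not 6 separate sites. The Dnajb6 windows hold the same site, as do the Hsph1 windows, and the Hspd1 and Hspe1 windows share the element printed above. The Hsph1 match lies after the start, at 15 to 27 or 36 to 48 depending on the start site. The element of 4 units (GAANNTTCNNGAANNTTC or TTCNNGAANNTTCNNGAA), which contains the shorter one, was found for Hspd1 and Hspe1 and in 0.0244% of all promoters. The endoplasmic reticulum stress element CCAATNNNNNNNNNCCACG was found in the promoters of Hspa5, Hsp90b1 and Dnajc3 and in 0.119% of all promoters. A match describes letters in a window and says nothing of whether a factor binds there.

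The arrays of a stage resembled each other closely, with correlations of 0.988 to 0.996 within E9.5, 0.989 to 0.993 within E11.5 and 0.996 to 0.998 within E13.5. All 9 pan-neuronal marker genes averaged above the lower quartile of the arrays at every stage, and the lowest and highest of their summed linear intensities were 558 and 1554 at E9.5, 6705 and 7545 at E11.5, and 11766 and 12466 at E13.5. Markers of other tissues were summed as well. The summed intensity of 10 skeletal muscle genes was 187 to 237 at E9.5, 190 to 223 at E11.5 and 2682 to 4105 at E13.5, and that of 6 connective tissue genes was 3180 to 4182, 8159 to 8834 and 21775 to 24067 at the same stages. The muscle sums at E9.5 and E11.5 are low, as the array median was 32 for 1 probe set. Sums of 7 erythroid genes were 26257 to 31037, 27820 to 39288 and 13885 to 17281. All 7 were called lower at E13.5 than at E11.5, beside 27% of all genes. The summed intensity of 4 genes of dividing cells was 7134 to 7612 at E9.5, 4380 to 5052 at E11.5 and 4579 to 5023 at E13.5. On principal component 3, samples 13 and 15 of E9.5 scored 26.0 and 22.5, against -16.3 to -6.9 for the remaining E9.5 arrays. Both lay above all other E9.5 arrays for 16 chaperone genes and below them for 9. Control probe sets also moved with stage. Those of 18S ribosomal RNA averaged 7.25 ± 0.42 log2 units at E9.5, 10.19 ± 0.30 at E11.5 and 10.74 ± 0.16 at E13.5, and the poly-A spike-ins 7.55 ± 0.22, 5.38 ± 0.13 and 5.12 ± 0.10 (SD). The 3' minus 5' difference of beta-actin, a sign of RNA quality, was 0.82 ± 0.16, 0.56 ± 0.05 and 0.47 ± 0.03 at these stages. These shifts include E9.5 and E11.5, which share a kit, and their part in the results was not tested.

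Most chaperone genes changed with stage, and more of them fell than rose. Of the 79 genes, 67 differed between the stages in limma's moderated F test at an adjusted p under 0.05, in which 75.8% of all genes were called. In the pairwise comparisons 61.8% of all genes were called in either direction between E13.5 and E9.5, 57.8% between E11.5 and E9.5, and 54.9% between E13.5 and E11.5. At E13.5 compared with E9.5, 40 genes were lower and 19 higher, which is 50.6% and 24.1% of the list, beside 29.1% and 32.7% of all genes. At E11.5 compared with E9.5, 33 were lower and 16 higher (41.8% and 20.3%, beside 26.9% and 31% of all genes). At E13.5 compared with E11.5, 28 were lower and 21 higher (35.4% and 26.6%, beside 27% and 27.9% of all genes). The balance of this last comparison depended on the probe set, with 21 lower and 23 higher and a median of 0.05 by the second-brightest one. The median log2 difference of the list was -0.24 for E13.5 against E9.5, -0.17 for E11.5 against E9.5 and -0.06 for E13.5 against E11.5, and the medians over all genes were 0.01, 0.02 and 0.00. The 3 comparisons share arrays, and none is independent of the other two.

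The size of the shifts was mostly moderate. At E13.5, 14 genes were at least 2-fold lower than at E9.5, and 4 at least 2-fold higher, beside 7.08% and 9.93% of all genes. At E11.5 compared with E9.5, 7 were at least 2-fold lower and 3 at least 2-fold higher (4.79% and 6.08% of all genes), and at E13.5 compared with E11.5, 1 and 4 (3.8% and 5.78%). Arrays did not overlap between E13.5 and E9.5 for 36 lower and 14 higher chaperone genes, beside 20.9% and 23.9% of all genes. Between E11.5 and E9.5 they did not overlap for 27 lower and 11 higher genes (17.8% and 19.9% of all genes), and between E13.5 and E11.5 for 24 lower and 17 higher genes (20.7% and 22.3%). Followed over both intervals, 10 genes fell and fell again, which is 12.7% of the list beside 5.69% of all genes, and 3 rose and rose again (3.8% beside 7.73%). Another 12 fell and then rose (15.2% beside 11%), 7 rose and then fell (8.86% beside 13.4%), and 13 were called in neither interval (16.5% beside 25.2%).

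**Figure D1:**
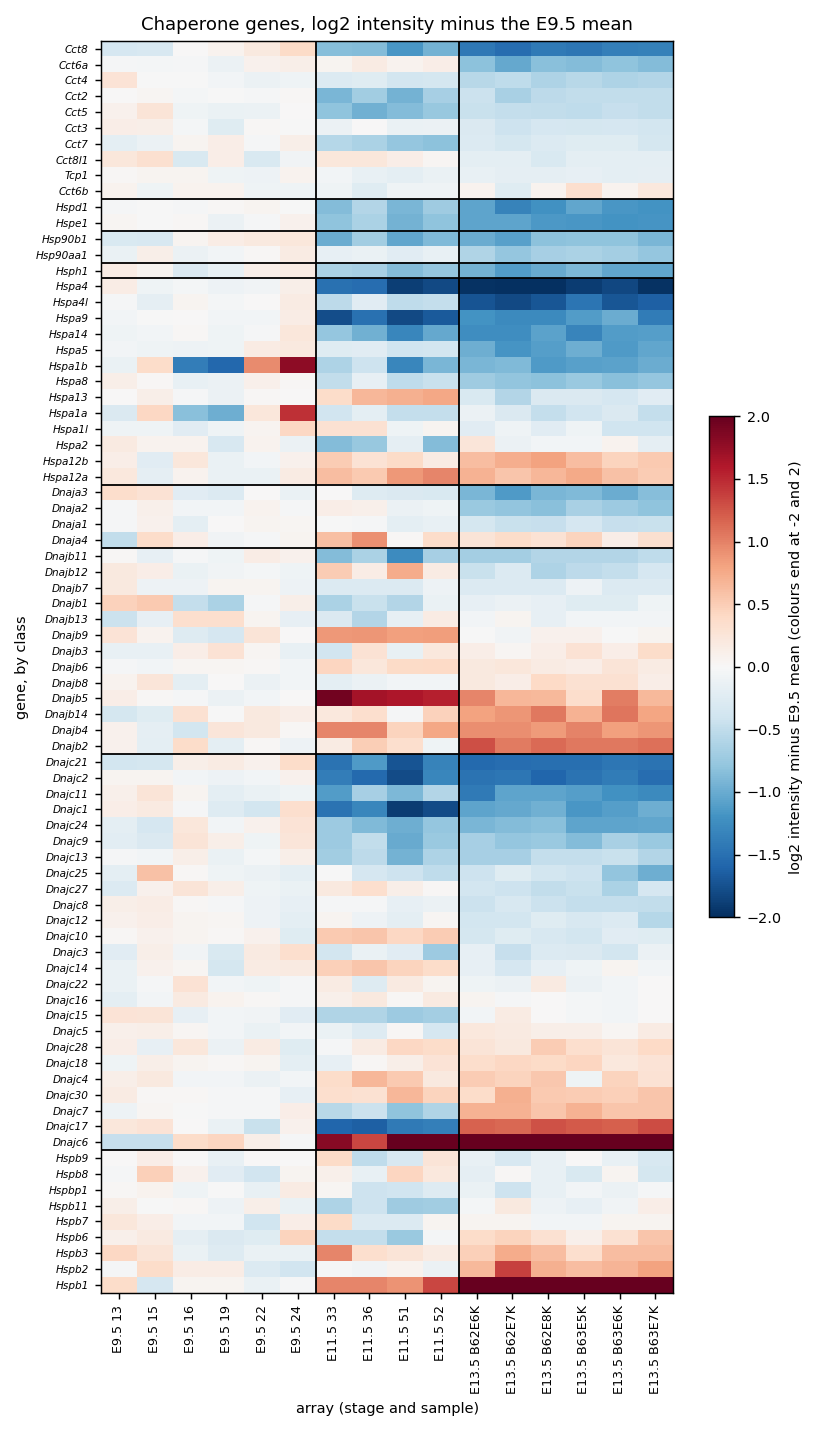
Log2 intensity of the 79 chaperone genes (rows, by class from chaperonin at the top to small heat shock proteins at the bottom) on 16 arrays (columns, by stage), minus each gene's E9.5 mean. Most chaperonin, Hsp90, Hsp110 and Hspa rows are blue at E13.5, Hspb1 and Dnajc6 are red beyond 2, and Hspa1b and Hspa1a vary among the 6 E9.5 arrays.

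The share of chaperone genes that fell was larger among genes with bright probe sets than among those with dim ones, where brightness also depends on the probes and does not rank transcripts. Of the 26 chaperone genes in the brightest 10% of all genes, 22 were lower and 2 higher at E13.5 than at E9.5, and 38.7% of the 1820 genes of that brightness were lower. Of the 10 between the 75th and the 90th percentile, 7 were lower, beside 41% of 2729 genes. Of the 22 between the median and the 75th percentile, 9 were lower and 9 higher, beside 37% and 41.8% of 4548 genes. Of the 12 between the 25th percentile and the median, 1 was lower and 7 were higher. Between those percentiles 24.1% of all genes were lower and 35% higher. Of the 9 dimmest, 1 was lower, beside 15.3% of all genes that dim.

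**Figure D2:**
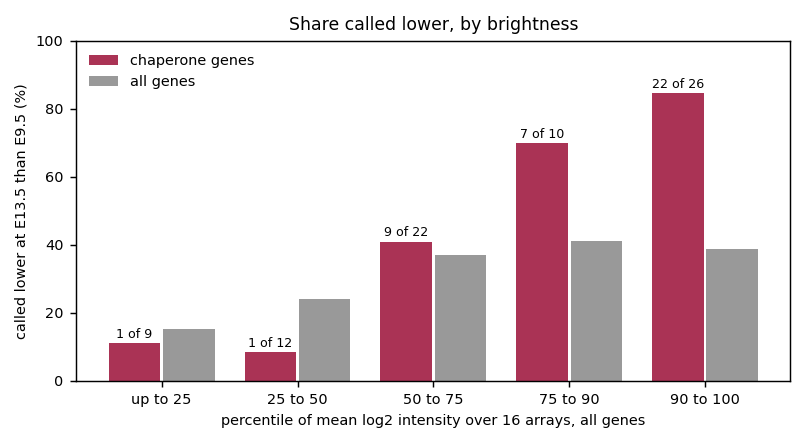
Share of chaperone genes (red bars, with the count above each) and of all genes (grey bars) called lower at E13.5 than at E9.5, by percentile of mean log2 intensity. In the brightest bin 84.6% of the chaperone genes were lower, beside 38.7% of all genes.

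By class, the chaperonin, Hsp90, Hspa and Hsph genes shifted down and the small heat shock proteins and Dnajb genes did not. Of all genes, 29.1% were called lower and 32.7% higher between E13.5 and E9.5, with a median of 0.01. Between E13.5 and E9.5, 8 of 10 Cct and Tcp1 genes fell and 0 rose (median log2 difference -0.41), both Hspd1 and Hspe1 fell (-1.15), both Hsp90 genes measured here fell (-0.80), and 8 of 13 Hspa genes fell and 2 rose (-0.78). Among J-domain genes, 3 of 4 Dnaja genes fell and 0 rose (-0.59), 13 of 25 Dnajc genes fell and 7 rose (-0.28), and 3 of 13 Dnajb genes fell and 6 rose (0.18). Over all 23 Dnajb probe sets, 8 were called lower and 7 higher, so the Dnajb balance depends on the probe set. Of 9 Hspb-named genes, 4 rose and 0 fell (0.01), and without Hspb11 and the exchange factor gene Hspbp1, which are not small heat shock proteins, 4 of 7 rose (0.34). By compartment, 9 of 14 endoplasmic reticulum genes fell and 2 rose (median -0.31), 5 of 9 mitochondrial genes fell and 3 rose (-0.95), and 5 of 6 genes of the nucleus, ribosome or spliceosome fell and 1 rose (-0.96). The 28 folding genes of the cytosol and nucleus outside the chaperonin were close to the shares of all genes. Of them, 9 were lower and 10 higher (32.1% and 35.7%, median -0.15).

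**Figure D3:**
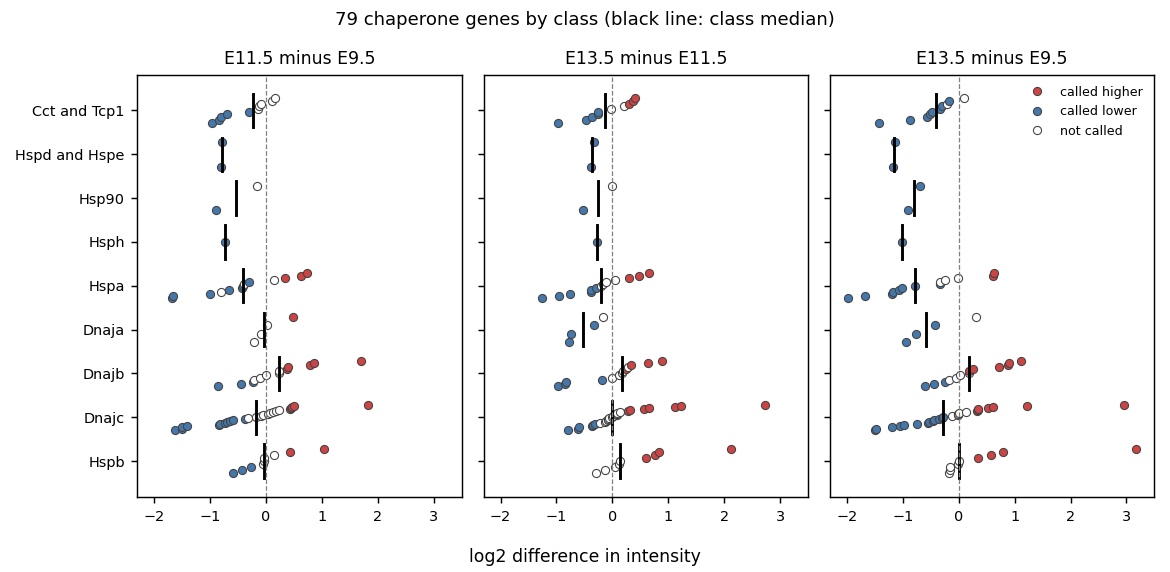
Log2 differences of the 79 genes in 3 comparisons, 1 point per gene, by class. Blue points were called lower, red points higher and white points not called, and a black line marks each class median, which lies at -1.15 for Hspd and Hspe and at 0.18 for Dnajb in the right panel.

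The cytosolic chaperonin is a double ring of 8 different subunits, encoded by Tcp1, Cct2, Cct3, Cct4, Cct5, Cct6a, Cct7 and Cct8. All 8 were lower at E13.5 than at E9.5, with no overlap between the arrays of the stages, and the log2 differences lay between -0.18 (Tcp1) and -1.43 (Cct8). Of their 25 probe sets, 21 were called lower, 0 higher and 4 not called between those stages, without a share over all probe sets of the array to compare. The fall of Tcp1 was small (log2 difference -0.18 ± 0.06 SE, adjusted p = 0.013), and it was not called with the B62 and B63 title prefixes of E13.5 as a random block (adjusted p = 0.082). The second probe set of Cct8 was near background, at an uncalled 0.01.

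By their brightest probe sets the subunits differed in when they fell, but probe sets of the same subunit also differed in timing. Levels are given below as log2 intensity, with the lowest, median and highest of 6 arrays at E9.5 and E13.5 and all 4 arrays at E11.5. Cct8 read 11.42, 11.79 and 12.14 at E9.5, 10.59, 10.80, 10.88 and 10.90 at E11.5, and 10.23, 10.32 and 10.40 at E13.5. It fell in both intervals, by 0.96 and then by 0.47, and its E13.5 level was 2.69-fold below E9.5 (limma adjusted p = 2e-10). Cct4 read 11.85, 11.92 and 12.23 at E9.5, 11.59, 11.61, 11.69 and 11.71 at E11.5, and 11.34, 11.39 and 11.45 at E13.5, and also fell in both intervals (-0.31 ± 0.08 and -0.26 ± 0.08 SE). Of its 6 dimmer probe sets, 1 rose in the first interval, by 0.74, and 3 were not called there, and with all probe sets averaged the first fall was not called (-0.10, adjusted p = 0.32).

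A different course held for Cct2, Cct5 and Cct7, which were lowest at E11.5. Cct2 read 12.30, 12.34 and 12.38 at E9.5, 11.40, 11.43, 11.65 and 11.67 at E11.5, and 11.69, 11.85 and 11.91 at E13.5. Cct5 read 11.73, 11.82 and 12.12 at E9.5, 10.90, 10.99, 11.06 and 11.10 at E11.5, and 11.35, 11.38 and 11.41 at E13.5. Cct7 read 11.59, 11.81 and 11.93 at E9.5, 10.97, 11.02, 11.16 and 11.22 at E11.5, and 11.44, 11.52 and 11.55 at E13.5. None of the 3 genes had overlapping arrays between any pair of stages. They were lower at E11.5 than at E9.5 by 0.80, 0.85 and 0.69 in the order given, and higher at E13.5 than at E11.5 by 0.29, 0.37 and 0.41 (limma adjusted p = 0.0025, 0.00061 and 0.00023). The dimmest of 3 Cct2 probe sets instead fell again after E11.5, by 0.44.

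By their brightest probe sets only, Cct6a and Cct3 were not called between E9.5 and E11.5 and fell afterwards. Cct6a read 12.28, 12.37 and 12.50 at E9.5, 12.45, 12.46, 12.53 and 12.55 at E11.5, and 11.37, 11.54 and 11.58 at E13.5, and its E13.5 arrays lay 1.97-fold below E11.5 (log2 difference -0.98 ± 0.07 SE, limma adjusted p = 4.8e-10). The second probe set of Cct6a differed, with -0.47 at E11.5 compared with E9.5 and 0.32 at E13.5 compared with E11.5. Cct3 read 11.74, 11.98 and 12.12 at E9.5, 11.84, 11.86, 11.87 and 11.98 at E11.5, and 11.57, 11.64 and 11.69 at E13.5, a fall of 0.25 at E13.5 compared with E11.5 that was not called with that random block (adjusted p = 0.056). All 6 dimmer probe sets of Cct3 were called lower already at E11.5 compared with E9.5, by 0.34 to 0.83. Tcp1 read 11.87, 12.01 and 12.04 at E9.5, 11.77, 11.82, 11.83 and 11.91 at E11.5, and 11.78, 11.79 and 11.82 at E13.5, and it was called in neither single interval. The testis form Cct6b averaged 3.25 ± 0.08, 3.13 ± 0.08 and 3.34 ± 0.20 at the 3 stages (SD), and Cct8l1, named for its likeness to Cct8, 3.77 ± 0.27, 3.93 ± 0.09 and 3.56 ± 0.05, near the arrays' lower quartile of 3.58.

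**Figure D4:**
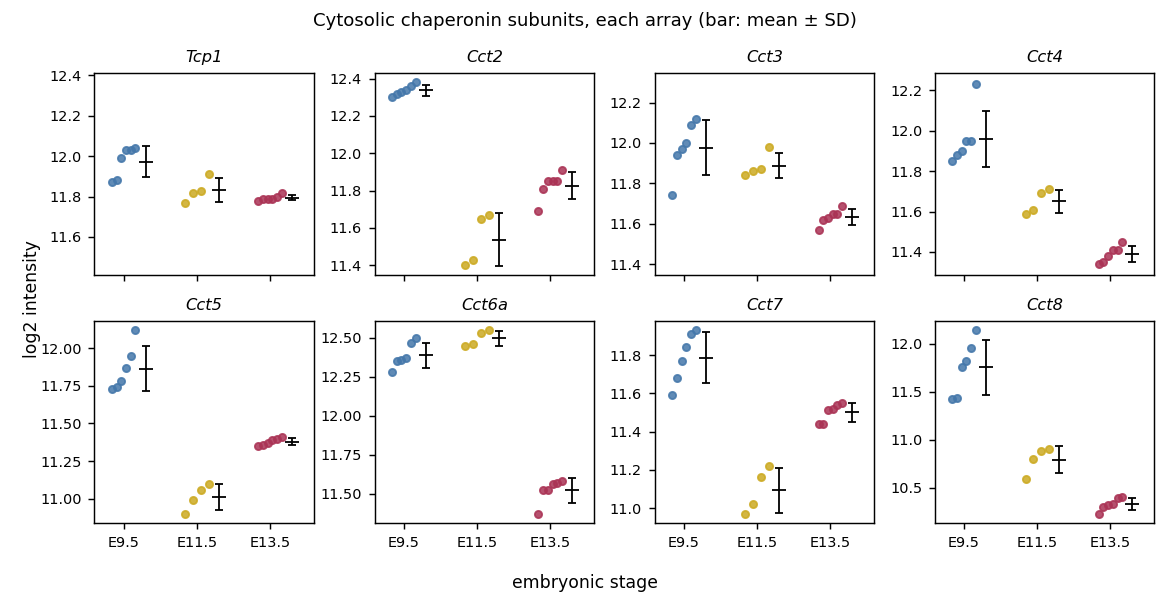
Log2 intensity of the 8 subunits of the cytosolic chaperonin on each array, by stage, with the mean and SD beside the points. By the brightest probe sets shown, every subunit is lower at E13.5 than at E9.5, and Cct2, Cct5 and Cct7 are lowest at E11.5. Cct6a falls after E11.5 by this probe set, but not by its other one.

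The mitochondrial chaperonin fell in both intervals. Hspd1 encodes its chamber and Hspe1 its lid, and the pair shares the 215-base promoter printed above. Hspd1 read 12.81, 12.83 and 12.89 at E9.5, 11.92, 11.97, 12.13 and 12.25 at E11.5, and 11.51, 11.66 and 11.80 at E13.5. Hspe1 read 12.12, 12.25 and 12.33 at E9.5, 11.30, 11.43, 11.43 and 11.60 at E11.5, and 11.04, 11.08 and 11.19 at E13.5. The 3 stages did not overlap for either gene. Hspd1 changed by -0.78 ± 0.08 at E11.5 compared with E9.5 and by -0.39 ± 0.08 at E13.5 compared with E11.5, and Hspe1 by -0.80 ± 0.07 and -0.33 ± 0.07 (log2 ± SE), so that both were lower at E13.5 than at E9.5 by 2.25-fold and 2.20-fold (limma adjusted p = 8.1e-12 and 4.7e-12). A dimmer Hspe1 probe set fell by 0.80 in the first interval and gave an uncalled -0.09 in the second.

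Other mitochondrial members had their own courses. Hspa9, the Hsp70 of the mitochondrial matrix, read 10.63, 10.66 and 10.84 at E9.5, 8.88, 8.92, 9.01 and 9.19 at E11.5, and 9.29, 9.46 and 9.70 at E13.5. It was 3.22-fold lower at E11.5 than at E9.5, the largest fall of any chaperone gene in that comparison, and then rose by 0.48. Its second-brightest probe set gave -1.14 and an uncalled 0.17, and a dim one fell by 1.95 in the second interval. Dnaja3, a matrix J-protein, fell by 0.95 between E9.5 and E13.5, and Dnajc11, a J-protein of the inner membrane organising system, by 1.19. Dnajc15, which works at the import motor, dipped at E11.5 and returned, with -0.65 and 0.65 in the intervals, and Dnajc30 rose by 0.44 in the first interval (limma adjusted p = 0.00025).

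In the cytosol, the Hsp110 exchange factors Hspa4 and Hspa4l had the largest falls of all 79 genes between E9.5 and E13.5. Hspa4 read 11.22, 11.26 and 11.47 at E9.5, 9.44, 9.52, 9.79 and 9.83 at E11.5, and 9.18, 9.34 and 9.50 at E13.5. Its E9.5 arrays lay more than 1 log2 unit above every later array, and its level at E13.5 was 3.92-fold below E9.5 (log2 difference -1.97 ± 0.08 SE, limma adjusted p = 2.5e-14). The 3 dimmer probe sets of Hspa4 gave -0.37, -0.26 and -0.26, the last of them uncalled, so the size of the change rests on the brightest one. Hspa4l, the closest relative of Hspa4, read 7.82, 7.99 and 8.16 at E9.5, 7.47, 7.49, 7.53 and 7.78 at E11.5, and 6.19, 6.29 and 6.54 at E13.5. It fell by 0.43 and then by 1.25, and was 3.19-fold lower at E13.5 than at E9.5. All 4 of its other probe sets were called lower between those stages too, but they differed in timing. The 2 dimmest fell before E11.5, by 1.24 and 1.57, with an uncalled -0.19 and -0.08 afterwards, and another fell by 1.11 and 1.12. Hsph1, another Hsp110 gene, read 10.80, 11.17 and 11.25 at E9.5, 10.23, 10.32, 10.43 and 10.45 at E11.5, and 9.97, 10.06 and 10.19 at E13.5, a fall of 0.74 and then of 0.28, the second not called with the random block (adjusted p = 0.073).

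The housekeeping Hsp70 gene Hspa8 fell in both intervals. It read 13.31, 13.49 and 13.58 at E9.5, 12.95, 12.97, 13.02 and 13.29 at E11.5, and 12.63, 12.67 and 12.75 at E13.5, and fell by 0.41 and by 0.38 in the intervals, without overlap between stages, to an E13.5 level 1.72-fold below E9.5 (limma adjusted p = 7.1e-09). Each of its 3 other probe sets also fell between E9.5 and E13.5, but 2 of them rose in the second interval, by 0.22 and 0.32. Hsp90aa1, the inducible cytosolic Hsp90, read 12.54, 12.67 and 12.85 at E9.5, 12.45, 12.51, 12.53 and 12.54 at E11.5, and 11.91, 12.01 and 12.08 at E13.5. By its brightest probe set it fell after E11.5 (-0.52 ± 0.08 SE, limma adjusted p = 8.6e-06), and the -0.17 before E11.5 was not called. That earlier difference was called lower under 7 alternatives, among them both other scalings (-0.24 and -0.25, adjusted p = 0.013 and 0.011) and the average of its probe sets (-0.27, adjusted p = 0.0012), but higher by its second-brightest probe set (0.24, adjusted p = 0.016). Another probe set gave -0.95 and then 0.62.

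Dnaja1 and Dnaja2, cytosolic J-proteins that bring clients to Hspa8, fell beside it by their brightest probe sets. Dnaja2 read 11.35, 11.38 and 11.51 at E9.5, 11.30, 11.33, 11.51 and 11.54 at E11.5, and 10.58, 10.64 and 10.76 at E13.5, which is an uncalled 0.01 and then 1.71-fold lower, although its 3 dimmer probe sets fell already at E11.5, by 0.32 to 0.87. Dnaja1 fell by 0.42 between E9.5 and E13.5 by its brightest probe set, and its second probe set rose by 0.58, so its direction depends on the probe set. Dnaja4 rose by 0.48 at E11.5 with overlapping arrays, a call lost without E11.5 sample 36 (0.33, adjusted p = 0.06).

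Hspa1a and Hspa1b encode the classical stress-induced Hsp70, are nearly identical in their coding sequence and may share signal on the array. Hspa1b read 5.43, 7.11 and 8.79 at E9.5, 5.70, 6.09, 6.39 and 6.58 at E11.5, and 5.86, 5.97 and 6.11 at E13.5, and Hspa1a read 3.32, 4.26 and 5.75 at E9.5, 3.81, 3.81, 3.91 and 4.09 at E11.5, and 3.81, 3.95 and 4.17 at E13.5. The E9.5 samples 13, 15, 16, 19, 22 and 24 lay at 6.86, 7.36, 5.61, 5.43, 7.94 and 8.79 for Hspa1b, a range that holds all 10 later arrays. Hspa1b was called lower at E13.5 than at E9.5 (-1.02 ± 0.40 SE, limma adjusted p = 0.032), but the arrays overlapped and the call was lost without E9.5 sample 24 (-0.66, adjusted p = 0.096), without sample 22 (-0.83, adjusted p = 0.085) or without sample 15 (-0.95, adjusted p = 0.062), and without any of the E13.5 samples B62E8K, B63E5K and B63E6K (adjusted p = 0.05 to 0.053). Without sample 16 or 19 it was also called lower at E11.5 than at E9.5 (-1.08 and -1.12, adjusted p = 0.032 and 0.02). Its 2 other probe sets fell at E11.5, by 1.47 and 1.33. Hspa1a was not called in any comparison.

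Samples 16 and 19 were also low for some other heat-inducible genes, which were picked out after their values were seen. They were the lowest 2 of the 6 E9.5 arrays for Hspa1b, for Hspa1a (3.46 and 3.32), for Hsph1 (10.80 and 10.94) and for Dnajb1 (9.39 and 9.23), the J-protein partner of inducible Hsp70. Sample 24 was the highest for Hspa1b, Hspa1a (5.75) and Hsph1 (11.25). For 3 other heat-inducible genes samples 16 and 19 were not the lowest pair. In these arrays Hspd1 lay at 12.82 and 12.86 within 12.81 to 12.89, Hspe1 at 12.26 and 12.12 within 12.12 to 12.33, and Hspb1 at 5.86 in both within 5.46 to 6.17. The summed intensity of 8 immediate early genes, a sign of handling, was 1087 and 955 in samples 16 and 19, 1030 in sample 24, and 842 to 1060 in the other E9.5 samples, and its part in the spread was not tested. Dnajb1 itself was lower at E11.5 than at E9.5 (-0.45, limma adjusted p = 0.035) with overlapping arrays, and without E9.5 samples 13 and 15 together the difference was -0.20 (adjusted p = 0.23). It was also not called without any single one of E9.5 samples 13, 15 and 24 or E11.5 samples 33, 36 and 51 (adjusted p = 0.06 to 0.1).

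In the endoplasmic reticulum, the main chaperones fell and several other genes peaked at E11.5 by their brightest probe sets. Hspa5, the luminal Hsp70 known as BiP, read 12.85, 12.88 and 13.14 at E9.5, 12.55, 12.59, 12.71 and 12.73 at E11.5, and 11.77, 11.88 and 11.98 at E13.5. It fell in both intervals without overlap, and its E13.5 level was 2.1-fold below E9.5 (limma adjusted p = 5.5e-11), although 1 of its 2 dimmer probe sets rose by 0.67. Hsp90b1, the luminal Hsp90 known as Grp94, read 10.64, 11.06 and 11.18 at E9.5, 9.92, 9.97, 10.07 and 10.27 at E11.5, and 9.87, 10.09 and 10.16 at E13.5. By its brightest probe set it fell in the first interval (-0.90), with 0.00 ± 0.11 SE in the second, where a dimmer probe set gave -1.10. Dnajc3, which encodes a luminal J-protein and also has a stress element in its printed promoter, had 5 probe sets. All 5 were called lower at E11.5 than at E9.5 (-1.61 to -0.37) and at E13.5 than at E9.5 (-2.03 to -0.24). The brightest fell by 0.37 at E11.5, a call lost without E11.5 sample 52 (-0.25, adjusted p = 0.093), and was 0.28 below E9.5 at E13.5 with overlapping arrays, and the second call was lost without E9.5 sample 15, 22 or 24 and without E13.5 sample B62E7K, B62E8K, B63E5K or B63E6K (-0.29 to -0.22, adjusted p = 0.051 to 0.097).

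Among J-proteins of the endoplasmic reticulum, Dnajb11, a BiP partner for unfolded secretory proteins, fell by 0.86 at E11.5, and Dnajc1, a membrane J-protein found at ribosomes, by 1.62. Dnajc1 read 7.51, 7.93 and 8.21 at E9.5, 5.98, 6.09, 6.41 and 6.57 at E11.5, and 6.71, 6.84 and 6.92 at E13.5, with its lowest level at E11.5 and no overlap between stages, and its second probe set went the other way (0.18 uncalled, then -0.62). Dnajb9 read 7.55, 7.93 and 8.17 at E9.5, 8.71, 8.72, 8.76 and 8.78 at E11.5, and 7.82, 7.91 and 7.98 at E13.5. This BiP co-chaperone of the unfolded protein response was 1.8-fold higher at E11.5 than at E9.5 and 1.78-fold lower at E13.5 than at E11.5, and its E9.5 and E13.5 arrays overlapped. Hspa13, a small Hsp70 relative of microsomes, read 8.62, 8.75 and 8.85 at E9.5, 9.10, 9.41, 9.45 and 9.51 at E11.5, and 8.16, 8.44 and 8.52 at E13.5, a similar peak of 0.62 up and 0.96 down that 1 of its 3 dimmer probe sets shared in both intervals.

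Dnajc10, a disulfide reductase, and Dnajb12, a membrane J-protein, also peaked at E11.5, but only by their brightest probe sets. Dnajc10 was higher by 0.50 at E11.5 than at E9.5 and lower by 0.79 at E13.5 than at E11.5 (limma adjusted p = 2.7e-08), while its second probe set gave an uncalled -0.03 and -0.16. The dimmest Dnajc10 probe set was called lower in both intervals (-0.40 and -0.35). Dnajb12 read 7.09, 7.16 and 7.41 at E9.5, 7.37, 7.39, 7.73 and 7.96 at E11.5, and 6.61, 6.75 and 6.95 at E13.5, with 0.40 up, where arrays overlapped, and 0.84 down, and its second probe set fell in both intervals (-0.58 and -0.36). Dnajb14, the relative of Dnajb12, rose instead, by 0.88 between E9.5 and E13.5 without overlap, while its second probe set fell by 1.20.

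Of the genes of ribosomes and nuclei, most dropped between E9.5 and E11.5 by their brightest probe sets and were not called afterwards. Dnajc2 and Hspa14 encode the ribosome-associated J-protein and Hsp70 that act on nascent chains. Dnajc2 read 9.78, 9.88 and 9.96 at E9.5, 8.09, 8.33, 8.50 and 8.57 at E11.5, and 8.29, 8.40 and 8.48 at E13.5, with E11.5 arrays 2.84-fold below E9.5 (limma adjusted p = 1.9e-11) and an uncalled 0.02 afterwards. Its second probe set fell by 0.81 and then rose by 0.68. Hspa14 fell by 1.01 and then gave an uncalled -0.17. Its second probe set gave -1.52 and an uncalled 0.28, but its dimmest rose by 0.39 and then fell by 0.96. Dnajc21, a J-protein of large ribosomal subunit maturation, read 8.02, 8.48 and 8.75 at E9.5, 6.67, 6.92, 7.06 and 7.25 at E11.5, and 6.83, 6.89 and 6.94 at E13.5, a fall of 1.42 followed by an uncalled -0.08. Probe sets of Dnajc21 disagreed, with its second one at -0.85 and then 1.21. Among its dimmer ones, 1 was called higher at E11.5 than at E9.5 by 1.49 and then gave -2.1. The dimmest was called higher by 0.3 at E11.5, and the remaining one was called lower (-0.29).

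Dnajc9, a histone chaperone linked to replication, fell by 0.74 at E11.5 (limma adjusted p = 1.1e-05) and had 0.00 ± 0.11 SE afterwards. These falls coincided with the lower summed intensity of the dividing-cell genes at E11.5 given above. All 4 dividing-cell genes were called lower at E11.5 than at E9.5, beside 26.9% of all genes. The part of cell division in the falls was not tested. Dnajc8, a spliceosome-associated J-protein, fell after E11.5 by 0.35 by its brightest probe set. Its second probe set fell already at E11.5, by 0.58, and again afterwards, by 0.50.

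Dnajc17, a nuclear J-protein linked to splicing, had the largest rise within a single interval. It read 7.31, 7.80 and 8.03 at E9.5, 6.11, 6.17, 6.34 and 6.38 at E11.5, and 8.90, 8.96 and 9.06 at E13.5, so it was lowest at E11.5 and 6.61-fold higher at E13.5 than at E11.5 (log2 difference 2.73 ± 0.11 SE, limma adjusted p = 8.9e-14). The second probe set of Dnajc17 repeated the dip (-1.54 and 1.12), but its E13.5 level was 0.42 below E9.5 where the brightest was 1.22 above. Dnajc7, which binds both Hsp70 and Hsp90 through its repeats, read 9.61, 9.69 and 9.84 at E9.5, 8.91, 9.11, 9.16 and 9.28 at E11.5, and 10.26, 10.34 and 10.41 at E13.5. It had a single probe set, dipped at E11.5 and was 1.54-fold higher at E13.5 than at E9.5 (limma adjusted p = 1.3e-07).

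A small number of chaperone genes rose through both intervals. Dnajc6 encodes auxilin, the J-protein with which Hsp70 strips clathrin from vesicles in neurons. It read 3.81, 4.32 and 4.70 at E9.5, 5.61, 6.09, 6.29 and 6.39 at E11.5, and 7.08, 7.22 and 7.37 at E13.5, with no overlap between stages, and was 7.73-fold higher at E13.5 than at E9.5 (log2 difference 2.95 ± 0.15 SE, limma adjusted p = 7.4e-13). Its 3 other probe sets were dim, and 1 of them was called higher, by 0.44. Samples 13 and 15, which had the lowest summed pan-neuronal intensity at E9.5 (558 and 609, beside 913 to 1554 in the other 4), also had the lowest Dnajc6 (3.81 in both, beside 4.25 to 4.70). Other lists set these samples apart too. Their surface ectoderm sums were the highest of E9.5 (1316 and 1290, beside 754 to 1031). Lowest of E9.5 were their endothelial sums (435 and 548, beside 603 to 706) and neural progenitor sums (5402 and 6043, beside 6082 to 6887). Neuronal markers and Dnajc6 rose over the same stages, and how much of the rise follows the neuronal share was not tested.

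Other J-proteins with neuronal or vesicle roles gave a mixed picture. Dnajb2, which is enriched in neurons and sorts ubiquitinated clients, read 6.02, 6.17 and 6.58 at E9.5, 6.13, 6.38, 6.54 and 6.70 at E11.5, and 7.25, 7.29 and 7.50 at E13.5. Its E13.5 arrays lay above all earlier ones (0.88 ± 0.11 SE compared with E11.5, limma adjusted p = 1.5e-06), and it had a single probe set. Dnajc5, the synaptic vesicle J-protein, had 5 probe sets that gave -1.44 to 1.17 between E13.5 and E9.5, and the brightest gave an uncalled 0.14. Dnajc13, an endosomal J-protein, fell by 0.55 between E9.5 and E13.5, and its second probe set gave an uncalled 0.21.

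The cytosolic genes Dnajb4, Dnajb5 and Dnajb6 rose early. Dnajb4 and Dnajb5 encode J-proteins of the same subclass as Dnajb1. Dnajb4 read 6.87, 7.29 and 7.48 at E9.5, 7.69, 8.01, 8.21 and 8.22 at E11.5, and 8.06, 8.14 and 8.23 at E13.5, a rise of 0.79 at E11.5, with E13.5 0.90 above E9.5, and its second probe set gave an uncalled -0.15 and 0.14. Dnajb5 read 5.95, 6.06 and 6.19 at E9.5, 7.62, 7.68, 7.73 and 7.99 at E11.5, and 6.41, 6.72 and 7.09 at E13.5, with a peak at E11.5, 3.25-fold above E9.5 (log2 difference 1.70 ± 0.11 SE, limma adjusted p = 1.1e-10), followed by a fall of 0.98. Its second probe set repeated the peak (0.88 and -0.89) but gave an uncalled -0.02 between E13.5 and E9.5. Dnajb6, which keeps aggregation-prone proteins soluble and has the heat shock element printed above, rose by 0.37 at E11.5, and the dimmest of its 4 probe sets fell by 1.01.

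Among the small heat shock proteins, Hspb1 rose most of all 79 genes between E9.5 and E13.5. It read 5.46, 5.82 and 6.17 at E9.5, 6.70, 6.77, 6.78 and 7.13 at E11.5, and 8.41, 9.02 and 9.34 at E13.5, with no overlap between stages. Hspb1, also known as Hsp27 and linked to actin, was 2.06-fold higher at E11.5 than at E9.5, 4.36-fold higher at E13.5 than at E11.5, and 8.99-fold higher at E13.5 than at E9.5 (log2 difference 3.17 ± 0.14 SE, limma adjusted p = 4.4e-14). Its second probe set gave 2.98 over the same span. Hspb2, a muscle small heat shock protein, read 4.64, 5.08 and 5.39 at E9.5, 4.91, 4.95, 5 and 5.09 at E11.5, and 5.64, 5.71 and 6.38 at E13.5, and rose after E11.5 by 0.84 (limma adjusted p = 4.6e-05). Hspb6, another one of muscle, rose by 0.77 in that interval after a fall of 0.43 that was not called without E11.5 sample 51 (-0.32, adjusted p = 0.07).

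These rises stood beside the skeletal muscle genes, 8 of 10 of which were higher at E13.5 than at E11.5 (27.9% of all genes were). At E13.5 the summed muscle intensity was 3759, 4105 and 3885 in the samples with title prefix B62 and 2682, 3353 and 3177 in those with prefix B63, and Hspb1 averaged 9.22 and 8.71 in the same groups without overlap. Muscle was not the only list apart between the prefixes. Endothelial sums were 823 to 863 in B62 and 727 to 801 in B63, and macrophage sums 668 to 721 and 556 to 619. Lower in B62 were the erythroid sums (13885 to 15269, and 16237 to 17281 in B63). So were those of neural progenitor genes (7642 to 7728, and 7859 to 7928 in B63). Sample B62E7K had the highest muscle sum and the highest Hspb2, at 6.38 beside 5.64 to 5.83 in the other 5. That sample also stood apart from the other E13.5 arrays for Cct6a, Hspa13, Dnajc8 and Dnajc15. The muscle sums of E9.5 and E11.5 overlapped. The part of muscle, or of any other tissue, in the rises of Hspb1 in both intervals and of Hspb2 was not tested.

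Among the remaining small heat shock proteins, Hspb3, a muscle form, was dim and was higher by 0.57 at E13.5 than at E9.5, a call kept without any single array (0.52 to 0.65) although the arrays overlapped. Its rise of 0.43 at E11.5 was not called without E11.5 sample 33 (0.25, adjusted p = 0.11). Hspb7, the cardiovascular form, averaged 3.86 ± 0.23 at E9.5, 3.83 ± 0.32 at E11.5 and 3.87 ± 0.05 at E13.5 (SD), and Hspb8, a partner of Bag3 in selective autophagy, averaged 6.89 ± 0.29, 7.04 ± 0.24 and 6.74 ± 0.17. Neither was called in any comparison by its brightest probe set. Hspb11, which is a part of the intraflagellar transport machinery in spite of its name, dipped at E11.5 by 0.60 and returned.

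Of the Hspa class, the atypical members Hspa12a and Hspa12b went against the majority. Hspa12a averaged 5.57 ± 0.17, 6.31 ± 0.21 and 6.19 ± 0.10 at the 3 stages (SD), a rise of 0.74 at E11.5 (limma adjusted p = 2.9e-06). Hspa12b, known from endothelial cells, was higher by 0.62 at E13.5 than at E9.5 without overlap. The summed intensity of 5 endothelial marker genes was 435 to 706 at E9.5, 435 to 516 at E11.5 and 727 to 863 at E13.5, and its part in the rise was not tested. Hspa2, best known from the testis, was dim, at -0.67 and then 0.66 with overlapping arrays.

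**Figure D5:**
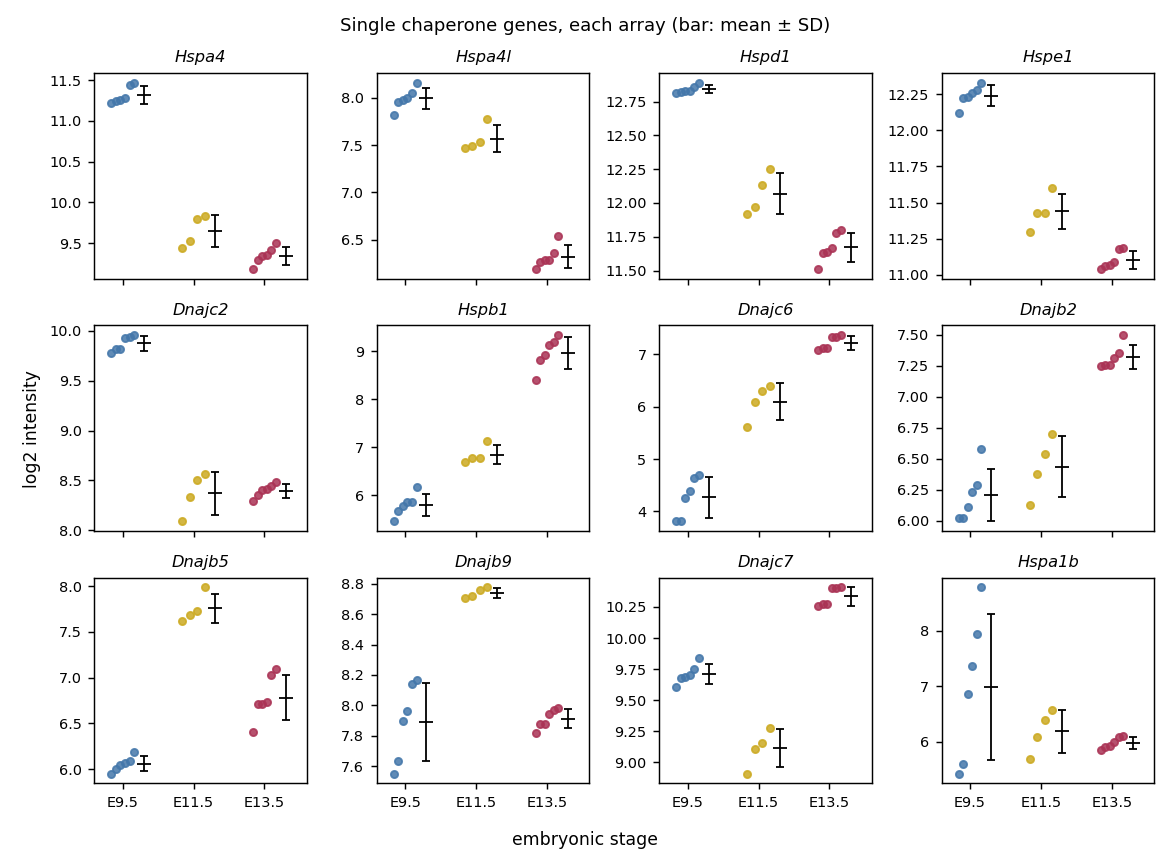
Log2 intensity of 12 chaperone genes on each array, by stage, with the mean and SD beside the points, on axes of different range. Hspa4 and Dnajc2 drop at E11.5, Hspb1 and Dnajc6 rise in both intervals, Dnajb5 and Dnajb9 peak at E11.5, and Hspa1b spreads over 5.43 to 8.79 at E9.5.

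Other genes of protein folding, given from 5 lists chosen with earlier results of these data known, are counted next. Of all genes, 26.9% were lower and 31% higher at E11.5 than at E9.5. At E13.5 compared with E9.5 these shares were 29.1% and 32.7%. Of 19 co-chaperones and regulators of Hsp70 and Hsp90, 12 fell and 3 rose at E11.5 compared with E9.5 (63.2% and 15.8%). At E13.5 compared with E9.5, 10 fell and 4 rose (52.6% and 21.1%). The largest falls by E13.5 were those of Fkbp4 (-1.56), an Hsp90-bound immunophilin, Bag4 (-1.35), an Hsp70 exchange factor, and Stip1 (-1.33), the adaptor that joins Hsp70 to Hsp90. Of 14 mitochondrial folding and protease genes, 10 fell and 1 rose at E11.5 compared with E9.5 (71.4% and 7.14%). At E13.5 compared with E9.5, 8 fell and 2 rose (57.1% and 14.3%), led by the protease Lonp1 (-1.16) and the prohibitin Phb2 (-1.02).

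Of 14 genes of prefoldin, phosducin-like proteins and tubulin folding, which deliver clients to the cytosolic chaperonin or take tubulin from it, 9 fell and 2 rose at E11.5 compared with E9.5 (64.3% and 14.3%). At E13.5 compared with E11.5, 9 rose and 2 fell (64.3% and 14.3%, beside 27.9% and 27% of all genes). Across both intervals, E13.5 against E9.5, 7 rose and 5 fell (50% and 35.7%, median log2 difference 0.18). Pfdn1 fell by 1.30 in the first interval, and Pfdn2 and Tbcb rose by 1.13 and 1.05 in the second. Of 22 genes of endoplasmic reticulum folding and the unfolded protein response, 9 fell and 5 rose at E11.5 compared with E9.5. That is 40.9% and 22.7%, beside 26.9% and 31% of all genes. Between E13.5 and E9.5, 9 of the 22 fell and 6 rose (40.9% and 27.3%, median -0.05). Creld2 and Manf, both targets of that response, fell by 2.17 and 1.34 at E11.5 compared with E9.5, and Creld2 rose by 1.28 afterwards. Of 4 listed genes, heat shock factors and their binding protein Hsbp1, 3 were measured here. Hsf2 and Hsbp1 were higher at E13.5 than at E9.5, by 1.20 and 1.61, and Hsf4 was lower by 0.20.

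Different probe sets of a gene often disagreed. Of the 79 genes, 51 had several probe sets. Of these, 42 were called between E13.5 and E9.5. For 33 of the 42 another probe set was called the same way, and for 9 another was called the opposite way. The opposite calls concerned Dnaja1, Dnajb5, Dnajb6, Dnajb14, Dnajc11, Dnajc17, Dnajc21, Dnajc28 and Hspa5. Over all 195 probe sets, 112 were called lower and 31 higher between these stages. Shares over all probe sets of the array are not given here, and the shares of all genes rest on each gene's brightest probe set. Counts of probe sets, including those of the chaperonin subunits and the Dnajb genes above, thus have no background to be compared with. At each stage 4 genes, Cct6b, Dnajb7, Hspa1l and Hspb9, averaged below the lower quartile of the arrays, where rounding to whole numbers limits what can be read.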

How the data were processed

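The authors deposited linear intensity values per probe set, all whole numbers (4 to 26979), and the submitters' processing notes name RMA. Its version and settings are not given in the labels or files. RMA makes arrays alike, so values show changes relative to other transcripts. Of 45101 probe sets, 64 were controls, 34945 carried 1 gene symbol in GEO's platform annotation, 932 carried several and 9160 none, and the last 2 kinds were not used. Symbols were kept as that annotation gives them. Each gene took its probe set with the highest mean log2 over 16 arrays. The log2 values were tested with limma 3.58.1 (R 4.3.3; moderated contrasts between stages and a moderated F test), fitted to the 16 arrays together, and p-values were adjusted by Benjamini-Hochberg over all 18193 genes. An adjusted p under 0.05 was a call. The script was tested on simulated data. No pair of arrays was identical (0 pairs), and 0 columns were unused. Arrays have no read depth, so their number limits the precision. Alternatives were 2 other scalings, 3 other treatments of probe sets, a pseudocount of 16, a filter on the dimmest 25% of genes, separate fits per pair of stages, array weights, a robust trended prior, the title prefix as a random block, fits without single arrays or without E9.5 samples 13 and 15, and a 2-fold limit. The members, classes, lists and tests were chosen with earlier results of these data known. Genes named with values are the chaperonin, Hsp90 and main Hsp70 genes, in each comparison the 5 top rises and the 5 top falls of called genes with no overlap between arrays, the largest change against each class, and others chosen after their values were seen.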

Additional observations from a re-analysis of the deposited data

Results flagged for a closer look

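In 12 of 186 groups of 4 or 6 arrays checked, 1 array stood apart from the others of its stage by Dixon's test at the 95% level, and chance flags about 1 in 20 groups. At E13.5, sample B62E7K stood apart for 5 genes: it was low for Cct6a (11.37, others 11.52 to 11.58) and Hspa13 (8.16, others 8.41 to 8.52) and high for Dnajc8 (11.09, others 10.92 to 10.98), Dnajc15 (8.75, others 8.53 to 8.60) and Hspb2 (6.38, others 5.64 to 5.83). Sample B62E8K was low for the dim gene Cct8l1 (3.46, others 3.58). At E9.5, sample 24 was low for Dnajc10 (9.08, others 9.35 to 9.41) and high for Hspa9 (10.84, others 10.63 to 10.69), and sample 13 was high for Cct4 (12.23, others 11.85 to 11.95). At E11.5, sample 33 was high for Dnaja3 (8.43, others 8.13 to 8.17), sample 51 was high for Hspa2 (4.39, others 3.70 to 3.81), and sample 36 was low for the dim gene Cct6b (3.00, others 3.17). For Cct8l1 and Cct6b the gap is a single step of the rounded values.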

How the results depend on the processing

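The members' counts of calls kept within 1.5 times under every alternative run except the 2-fold limit, which left 3 higher and 7 lower between E11.5 and E9.5, 4 and 1 between E13.5 and E11.5, and 4 and 14 between E13.5 and E9.5. Counts by class or compartment did not all keep within 1.5 times. Of these, 32 moved further with the second-brightest probe set, 24 with the probe set of largest spread and 17 with probe sets averaged. The median log2 difference moved to -0.39 between E13.5 and E9.5 when array medians were set equal (they differed by 0.07, 0.08 and 0.15 between E11.5 and E9.5, E13.5 and E11.5, and E13.5 and E9.5), and to -0.43 (E11.5 against E9.5) and -0.53 (E13.5 against E9.5) with the probe set of largest spread. Between E13.5 and E11.5 the median was 0.05 with the second-brightest probe set (21 lower, 23 higher) and 0.00 with probe sets averaged. Leaving out each array in turn gave 15 to 19 higher, 31 to 35 lower and a median of -0.19 to -0.13 between E11.5 and E9.5, 20 to 21, 27 to 29 and -0.08 to -0.03 between E13.5 and E11.5, 18 to 20, 38 to 42 and -0.28 to -0.22 between E13.5 and E9.5, and 65 to 69 in the F test. Signs turned for these log2 differences, called or not. With a gene's probe sets averaged, the sign turned between E11.5 and E9.5 for Cct6a -0.18, Dnaja2 -0.46, Dnajb12 -0.09, Dnajb14 -0.66 and Dnajb6 -0.03. With a gene's probe sets averaged, the sign turned between E13.5 and E11.5 for Cct3 0.04, Hsp90b1 -0.55, Hspa4 0.06, Hspa9 -0.39 and Hspb7 -0.19. With a gene's probe sets averaged, the sign turned between E13.5 and E9.5 for Dnajb14 -0.16 and Dnajb6 -0.15. With the second-brightest probe set, the sign turned between E11.5 and E9.5 for Cct6a -0.47, Cct8 0.04, Dnaja1 0.74, Dnaja2 -0.87, Dnaja4 -0.06, Dnajb12 -0.58, Dnajb14 -1.56, Dnajb4 -0.15, Dnajc1 0.18, Dnajc10 -0.03, Dnajc13 0.23, Dnajc5 0.52, Hsp90aa1 0.24, Hspb11 0.05 and Hspb8 -0.59. With the second-brightest probe set, the sign turned between E13.5 and E11.5 for Cct3 0.25, Cct6a 0.32, Dnajc1 -0.62, Dnajc21 1.21, Dnajc5 -0.02, Hsp90b1 -1.10, Hspa1b 1.16, Hspa5 0.11, Hspa8 0.22 and Hspb8 0.37. With the second-brightest probe set, the sign turned between E13.5 and E9.5 for Cct8 0.01, Dnaja1 0.58, Dnajb14 -1.20, Dnajb5 -0.02, Dnajb6 -0.12, Dnajc13 0.21, Dnajc17 -0.42, Dnajc21 0.37 and Hspb11 0.22. With the probe set of largest spread, the sign turned between E11.5 and E9.5 for Dnaja1 0.74, Dnaja2 -0.87, Dnaja4 -0.06, Dnajb12 -0.58, Dnajb14 -1.56, Dnajb6 -1.01, Dnajc10 -0.40, Dnajc21 1.49, Hsp90aa1 0.24 and Hspb8 -0.59. With the probe set of largest spread, the sign turned between E13.5 and E11.5 for Cct2 -0.44, Dnajb6 0.17, Dnajc3 -1.54, Dnajc5 -0.54, Hsp90b1 -1.10, Hspa5 0.11, Hspa9 -1.95, Hspb7 -0.44 and Hspb8 0.37. With the probe set of largest spread, the sign turned between E13.5 and E9.5 for Dnaja1 0.58, Dnajb14 -1.20, Dnajb6 -0.85 and Dnajc5 -1.44. These genes have probe sets that disagree, and the cause was not tested. No paired analysis was possible because the stages share no replicate numbers. Dim genes near the lower quartile of 3.58 are limited by rounding.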
